A study of Lolium arundinaceum with 18 samples.

Results

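Calcium sensors and the protein kinases that act with them were followed in leaves of tall fescue (Festuca arundinacea), a cool-season forage and turf grass. A unigene, that is, one gene-level sequence of an assembly made without a genome, was taken as a member when its description named calmodulin, a numbered CML protein, a calcineurin B-like protein, a calcium-dependent protein kinase or a CBL-interacting kinase. The rule matched 212 of 109684 unigenes, of which 42440 had a description. By description the members were grouped as 56 sensors, 111 kinases and 45 further proteins, mostly ones that bind calmodulin. The 45 were kept apart from the kinases, although some were described as receptor-like kinases and 8 had a kinase domain. The sensors were 7 calmodulins, 40 calmodulin-like proteins (CMLs) and 9 calcineurin B-like proteins (CBLs). The kinases were 49 calcium-dependent protein kinases (CDPKs), 55 CBL-interacting protein kinases (CIPKs) and 7 calmodulin-dependent kinases.

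In plant cells a stimulus such as water loss opens channels that let calcium into the cytosol, and pumps and exchangers take it out again. Calmodulins, CMLs and CBLs bind the calcium through EF-hand loops and pass the signal on by changing shape. They have no catalytic part of their own, whereas a CDPK carries EF-hands and a kinase on one chain. A CBL acts by docking on the NAF motif of a CIPK, and such pairs are known for setting ion transport and stomatal responses in drought and salt stress. Calmodulin binds many further proteins, among them the CBP60 and CAMTA transcription factors of defence and cold responses.

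The 6 groups had 3 libraries each, and all came from medium-sized functional leaves of potted plants taken on day 20. CK plants were kept at 65 to 75% of field capacity and sprayed with distilled water. The Si NPs group received silicon nanoparticles at 300 mg/L, and the CNCs group cellulose nanocrystals (rod-shaped crystals of plant cellulose) at 100 mg/L, at the same water supply. DS plants were kept at 35 to 45% of field capacity with no spray named for them in the labels. DS_Si NPs and DS_CNCs plants had that drought together with the respective particle. Tween-20, a wetting agent, was added at 0.05% to the particle suspensions, so a particle effect and a Tween-20 effect cannot be told apart. Nothing in the labels says that the 3 libraries of a group came from separate pots, so the p-values measure the spread between these libraries, which may be technical.

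Libraries held 16175624 to 26102122 estimated counts. Photosynthesis genes were high everywhere, as the leaf label asks. Their summed TPM (transcripts counted relative to a fixed total, a level corrected for transcript length and depth) ranged from 49416 to 134835 per library. Group means were 89135 in CK, 103550 with Si NPs and 54689 with CNCs, and under drought 73712 without particles, 105534 with Si NPs and 71045 with CNCs. Histones, cyclins and other genes of dividing cells summed to 4768 to 5556 TPM in the CNCs libraries and to 3282 to 3878 TPM in CK. The 4 unigenes of root or storage tissue summed to a mean of 106 TPM in CK (17.2 to 196 over its libraries), 31.2 with Si NPs and 19.1 with CNCs. Under drought the mean sum was 95.3 TPM without particles, 60.1 with Si NPs and 21.7 with CNCs. The 20 unigenes of flower or seed summed to means of 122, 164, 181, 117, 139 and 126 TPM in the same order. The part of these markers in the results below was not tested, and in whole leaves fewer cells of a type and less RNA per cell cannot be told apart. One library stood apart by lying unusually close to a mixture of its group mates. CK 3 differed from a weighted mean of CK 1 and CK 2 (weight 0.45 for CK 1) by a median of 0.18 on the log2 scale, while the same distance was 0.35 to 0.84 for each of the other 17 libraries. Whether CK 3 holds material of the other CK libraries was not tested. If it did, CK would have fewer than 3 independent libraries and p-values against CK would be too small, so counts that rest on CK are also given without CK 3.

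Domain annotation covered the classes unevenly. An EF-hand domain was annotated for 34 of the 40 CMLs, all 9 CBLs and 4 of the 7 calmodulins, but for only 7 of the 49 CDPKs. A kinase domain was annotated for 30 of the 49 CDPKs and 36 of the 55 CIPKs. The NAF motif was found in 9 CIPKs. Many members were fragments, with a median length of 696.5 bases and a shortest of 202 bases, and 50 members had no domain at all. In 3 named members the domain went against the description: the unigene called Calmodulin (DN7633_c0_g1) carried an FSH1 hydrolase domain, CML50 (DN2583_c0_g1) a DsbD domain and a calmodulin-dependent kinase (DN5402_c0_g1) an RVT_3 domain, and none of the 7 calmodulin-dependent kinases had a kinase domain. Unigenes of one assembly component, such as CIPK14 (DN251_c1_g1), CDPK1 (DN251_c1_g2) and CDPK15 (DN251_c1_g3), can share reads, so their separate values are uncertain.

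Levels differed over 3 orders of magnitude among members. On the TPM scale, the mean over all 18 libraries was 10 or more for 60 members and below 1 for 28. The highest 4 were CML15 (DN2633_c1_g1), a sensor, at 223 TPM, a calmodulin-like protein (DN180_c1_g1) at 161 TPM, and the kinases CIPK10 (DN3643_c0_g1) at 129 TPM and CIPK25-like (DN10026_c0_g1) at 119 TPM. The highest calmodulin-binding protein was the transcription factor CAMTA2 (DN4919_c0_g1) at 58.6 TPM. The highest CBL was CBL1 (DN26281_c0_g1) at 42.7 TPM, and the highest CDPK (DN12782_c0_g1) reached 37.0 TPM. CML15 (DN2633_c1_g1) averaged 158 ± 3.41 TPM (SD, n = 3) in CK, 331 ± 132 with Si NPs and 295 ± 129 with CNCs. Under drought it averaged 232 ± 48.0 TPM without particles, 139 ± 25.3 with Si NPs and 186 ± 46.3 with CNCs. None of these 7 members was called in any comparison described below.

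Summed over the 56 sensors, the level was lowest in CK, at 668 ± 84.8 TPM, and reached 1056 ± 242 with Si NPs and 1342 ± 68.9 with CNCs. Under drought the sum was 1253 ± 173 TPM without particles, 734 ± 154 with Si NPs and 1017 ± 381 with CNCs. CMLs made up most of these sums, with 572 TPM in CK and 1117 TPM in DS, whereas the CBLs stayed between 48.0 and 70.0 TPM in all groups. The 111 kinases together gave 1001 ± 128 TPM in CK, 961 ± 71.3 with Si NPs and 1286 ± 95.3 with CNCs, and under drought 1292 ± 103 without particles, 1010 ± 180 with Si NPs and 1151 ± 79.4 with CNCs. The calmodulin-binding proteins ran from 251 ± 35.7 TPM in CK to 482 ± 54.5 in CNCs. These sums are a description, and with 3 libraries against 3 an exact two-sided permutation test cannot go below a p of 0.1.

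**Figure D1:**
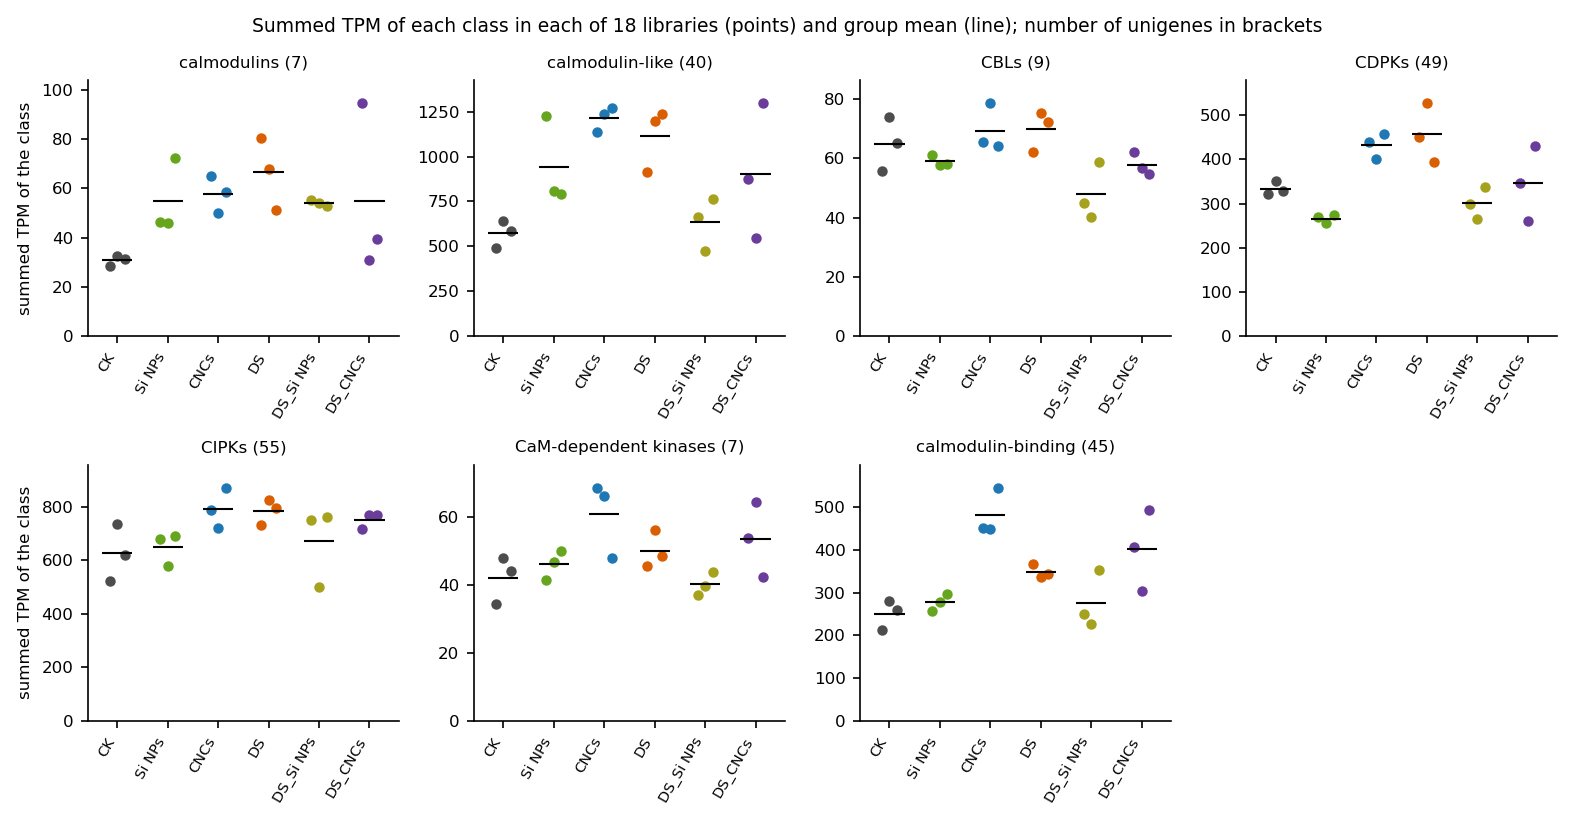
Summed TPM of each of the 7 classes of members (vertical axis, from 0) in the 6 groups, with 1 point per library and a line at the mean of 3 libraries. CMLs averaged 572 TPM in CK and 1117 in DS, while CBLs stayed between group means of 48.0 and 70.0 TPM.

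Of the members, 156 had enough counts to be tested (44 sensors, 82 kinases and 30 calmodulin-binding proteins), and 56 did not, with a median mean level of 1.07 TPM. Of those tested, 1 was above the count cutoff in a single group, and 107 lay above the median level of all tested unigenes, 3.56 TPM. A member was called when edgeR's quasi-likelihood test, fitted and adjusted over all 55979 tested unigenes, gave an adjusted p below 0.05 and the fold change was larger than 2 on the log2 scale, in either direction. In all, 20 members were called in at least 1 of the 9 comparisons. A test of any difference among the 6 groups passed at an adjusted p below 0.05 for 35 of 156 members, against 12.6% of all tested unigenes and 15.8% of those with a description. By group these were 12 of 44 sensors, 12 of 82 kinases and 11 of 30 calmodulin-binding proteins, some of the last being receptor kinases by description. Without CK 3 this test passed for 16 members. The share of all tested unigenes in that fit is not given, so a drop in the members cannot be told from one in all unigenes.

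Drought without particles (DS against CK) moved 10 of the 156 tested members past the threshold, and all 10 were higher in DS. The background was 2.01% of all tested unigenes called in this comparison, 1.59% higher, and 2.72% of those with a description. Called were 5 of 44 sensors and 5 of 82 kinases, and none of the 30 calmodulin-binding proteins, of which 3 had an adjusted p below 0.05 with a smaller fold. Over all tested members the median log2 fold change was 0.61, against 0.00 over all tested unigenes. The median was 1.09 for sensors, 0.41 for kinases and 0.61 for calmodulin-binding proteins, and for the CMLs alone it was 1.61, with 32 of 34 above 0.

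**Figure D2:**
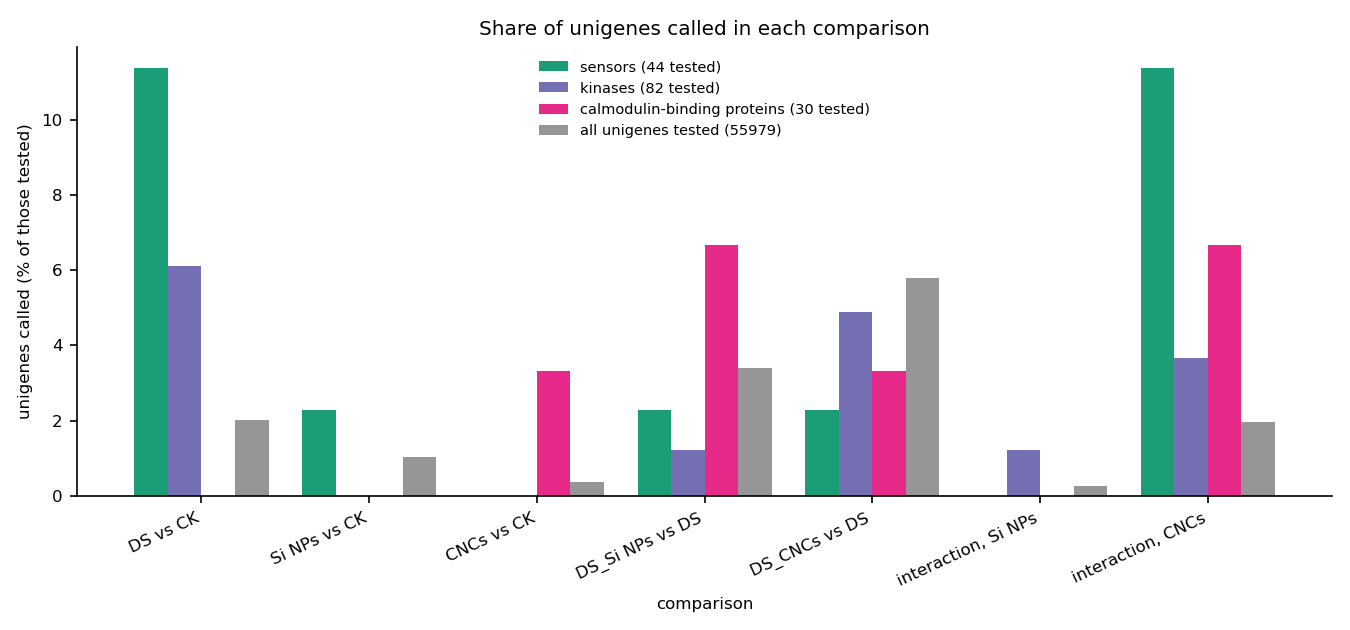
Share of tested sensors, kinases, calmodulin-binding members and all tested unigenes that were called in each comparison (percent). In DS against CK, 5 of 44 sensors and 5 of 82 kinases were called, beside 2.01% of all tested unigenes.

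Among the sensors, CML22 (DN2099_c0_g2) had 1.14, 0.81 and 1.36 TPM in the CK libraries and 4.60, 10.1 and 22.4 TPM in DS. The DS libraries spread widely, but none overlapped CK, and the log2 fold change was 3.58 ± 0.59 (SE; edgeR adjusted p = 0.00833). Calmodulin-like protein 6 (DN4261_c0_g1) had 5.33, 14.3 and 9.67 TPM in CK and 185, 117 and 153 TPM in DS, a log2 fold change of 4.17 ± 0.70 (edgeR adjusted p = 0.0111). It was the most abundant called sensor in DS. A calmodulin fragment of 203 bases (DN11525_c0_g2) had 1.25, 1.44 and 1.22 TPM in CK and 57.3, 44.6 and 27.2 TPM in DS. That was 4 estimated counts over the CK group and 117 over DS (log2 fold change 5.01 ± 1.18, edgeR adjusted p = 0.0297). It shares its assembly component with DN11525_c0_g1, so reads may have been split between them.

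The remaining pair of called sensors was close to absent in CK. Calmodulin-like protein 5 (DN47043_c0_g1) had 0.26, 0 and 0 TPM in CK and 10.2, 5.79 and 7.38 TPM in DS. With 2 counts over CK and 397 over DS the ratio was 212 (95% counting interval 58.4 to 1760; edgeR adjusted p = 0.0306). CML45 (DN65317_c0_g1) had no counts in any CK library and 24.3, 48.5 and 37.4 TPM in DS, which was at least 56.0-fold higher with a floor of 3 counts over the CK group (edgeR adjusted p = 0.0464). Intervals and floors cover counting error only.

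Among the kinases, CDPK9-like (DN2195_c0_g1) had the lowest adjusted p. Its level was 2.53, 4.06 and 3.23 TPM in CK and 16.0, 11.1 and 15.1 TPM in DS, so the groups were well apart (log2 fold change 2.40 ± 0.22, edgeR adjusted p = 0.000340). CDPK4 (DN10349_c0_g1) had 5.28, 7.28 and 7.05 TPM in CK and 57.0, 85.6 and 18.8 TPM in DS (log2 fold change 3.13 ± 0.77, edgeR adjusted p = 0.0489). CDPK21-like (DN21734_c0_g2) was near 0 in CK, with 2 counts over the group against 102 in DS, a ratio of 54.6 (95% counting interval 14.7 to 457; edgeR adjusted p = 0.0359).

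Both called CIPKs belong to the kinases that CBLs recruit. CIPK31 (DN3283_c0_g1) had 7.61, 3.94 and 6.74 TPM in CK and 12.1, 61.9 and 32.3 TPM in DS, with the DS 1 library close to CK (log2 fold change 2.85 ± 0.57, edgeR adjusted p = 0.0185). CIPK29-like (DN3368_c0_g1) had 4.31, 4.60 and 4.17 TPM in CK and 53.6, 43.9 and 30.3 TPM in DS (log2 fold change 3.55 ± 0.75, edgeR adjusted p = 0.0272). For all 10 called members the lowest DS library was above the highest CK library. They were called for a large fold between these same libraries, so the separation adds no support. No share over all tested unigenes is given beside it.

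**Figure D3:**
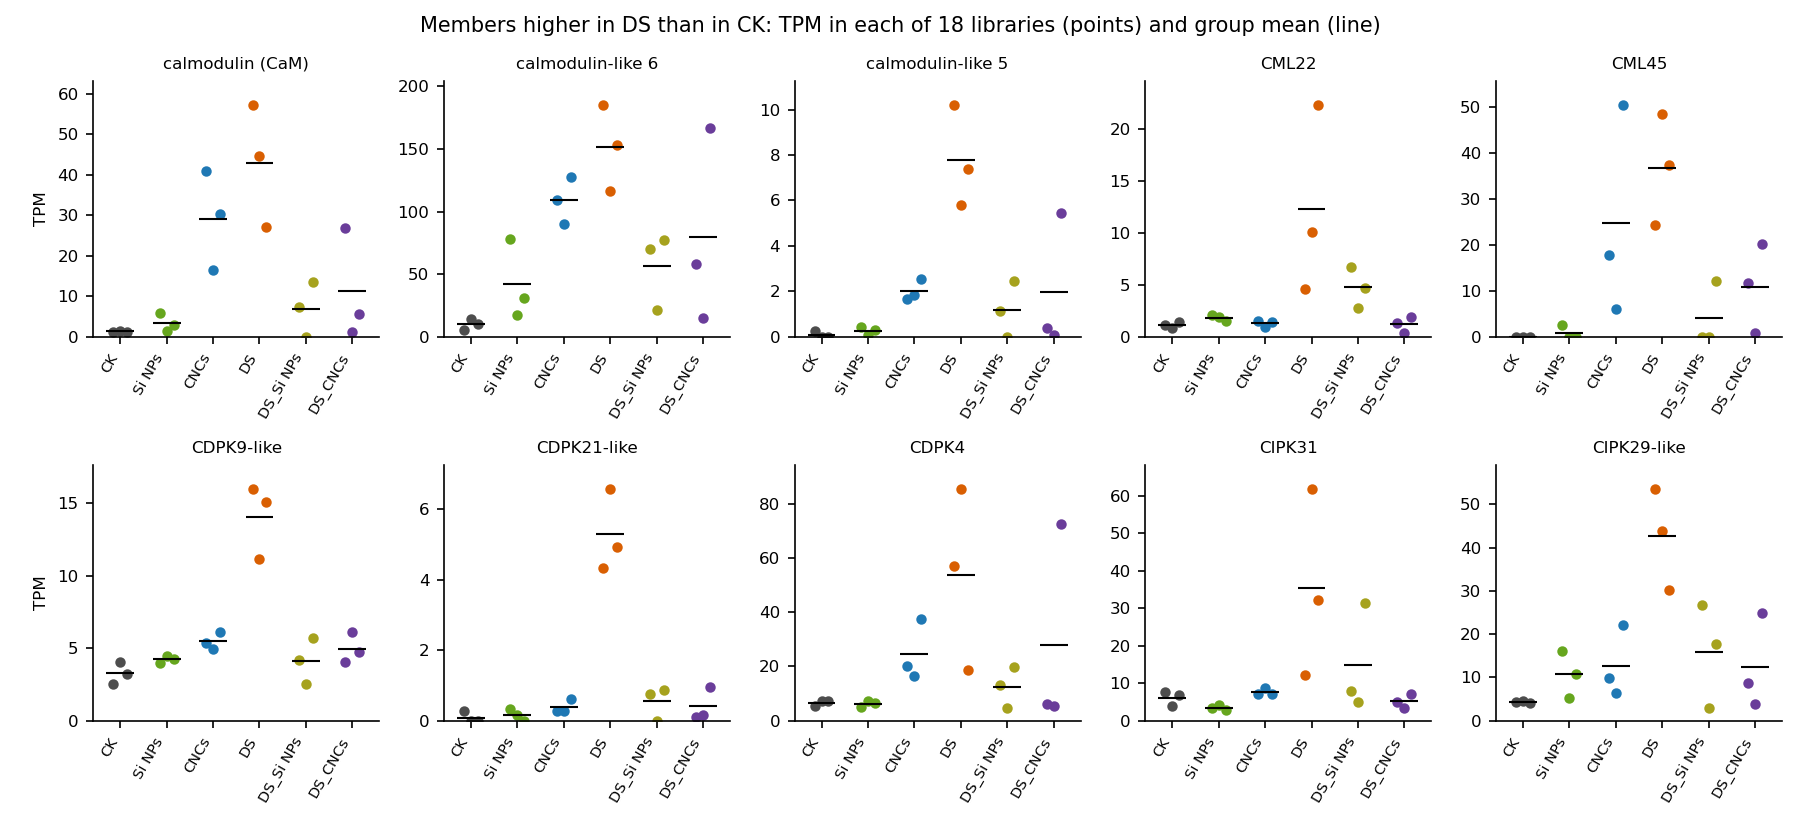
TPM (vertical axis, from 0, a panel per member) of the 10 members called in DS against CK, with 1 point per library in the 6 groups and a line at the mean of 3 libraries. CDPK9-like had 11.1 to 16.0 TPM in DS and at most 6.11 TPM in every library of the other 5 groups.

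How many of these calls stood depended on the CK libraries. Without CK 1, CK 2 or CK 3 the comparison called 3, 2 and 1 members, with 0.711%, 0.392% and 0.239% of all tested unigenes called. Without DS 1, DS 2 or DS 3 it called 4, 3 and 9, and for these fits the share of all tested unigenes is not given. Without CK 3 the single call was CDPK9-like (DN2195_c0_g1), which was kept in all 18 fits that each left out 1 library, with an adjusted p of at most 0.00558. It missed the fold threshold under limma-trend on log2(TPM + 0.5) and log2(TPM + 1), with a log2 fold change down to 1.82. The same settings ended the calls of CIPK31 and CDPK4, and no filter on low counts those of CDPK21-like, CML45 and CDPK4 (adjusted p up to 0.0629, 0.0881, 0.0644, 0.0676 and 0.0881 over their alternatives). CML22 was lost without CK 2 or CK 3 (adjusted p up to 0.0579) and calmodulin-like protein 6 without CK 1 or CK 3 (up to 0.0776). CIPK31 was lost without any one CK library or DS 2 (up to 0.1004), and CIPK29-like, the calmodulin fragment and calmodulin-like protein 5 without any one CK library, DS 1 or DS 2 (up to 0.143, 0.158 and 0.163). CDPK21-like was lost in 9 of the 18 fits, and CML45 and CDPK4 in 13 each (up to 0.179, 0.171 and 0.188).

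The CBLs showed smaller changes, and they went both ways. CBL3 (DN12449_c0_g1), a tonoplast calcium sensor in Arabidopsis, had 7.71, 11.4 and 11.1 TPM in CK and 4.79, 2.84 and 5.03 TPM in DS. The log2 fold change of -1.06 ± 0.20 passed the adjusted p (0.0104, edgeR) but not the fold threshold. With drought and Si NPs its level was 8.82, 9.06 and 9.26 TPM, and with drought and CNCs 9.76, 8.94 and 9.32 TPM, above every DS library. The log2 fold changes against DS were 1.23 (edgeR adjusted p = 0.00758) and 1.18 (edgeR adjusted p = 0.00430), again under the fold threshold. CBL1 (DN26281_c0_g1), a plasma membrane sensor in Arabidopsis, averaged 43.1 TPM in CK, 56.6 TPM in DS, 32.0 TPM in DS_Si NPs and 37.6 TPM in DS_CNCs. Its log2 fold changes against DS were -0.77 (edgeR adjusted p = 0.0260) and -0.71 (edgeR adjusted p = 0.0253).

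At normal water supply, each particle moved 1 of the 156 members past the threshold in the main edgeR fit. DESeq2 and a fit of only the libraries compared called more, most of all for CNCs. Those counts are in the last section, without a share of all tested unigenes. For Si NPs against CK, where 1.03% of all tested unigenes were called, it was a CML15 (DN45247_c0_g1), a different unigene from the abundant one above. It had 7.65, 0.75 and 2.10 TPM in CK and 125, 66.6 and 35.0 TPM in Si NPs, and the other 4 groups lay between 9.25 and 33.4 TPM. The log2 fold change was 4.75 ± 0.76 (edgeR adjusted p = 0.0225), and leaving out CK 2 or CK 3, or the first or second Si NPs library, ended the call (adjusted p up to 0.161). Over the members, the median log2 fold change was 0.29 for Si NPs and 0.51 for CNCs, against 0.07 and 0.08 over all tested unigenes. For sensors it was 1.01 and 0.82, or 0.86 and 0.69 with the unigenes at 0 in one group set to their bound.

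For CNCs against CK, where 0.377% of all tested unigenes were called, it was a calmodulin-binding protein (DN1842_c1_g1). Its level was 0.61, 1.51 and 1.03 TPM in CK and 8.51, 11.7 and 11.2 TPM in CNCs, with no overlap (log2 fold change 3.35 ± 0.62, edgeR adjusted p = 0.0405). In DS it was 3.58, 2.82 and 6.76 TPM. The call was kept in 8 of 18 fits that left out 1 library (adjusted p up to 0.202). It was lost without any one CK or CNCs library, and also without DS_CNCs 1 or any one Si NPs library. With the replicate number as a block it was lost as well (adjusted p = 0.0561, the highest over the alternatives). No sensor or kinase was called here in the main edgeR fit. Without CK 3 neither particle had a called member, and the share of all tested unigenes in that fit is not given.

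Under drought, Si NPs moved 4 of the 156 members past the threshold against DS, 1 higher and 3 lower, beside 3.39% of all tested unigenes (2.34% higher and 1.04% lower). CNCs moved 6, 1 higher and 5 lower, beside 5.8% (3.48% higher and 2.32% lower). Both shares of members, 2.56% and 3.85%, were below the background. Counting every member with an adjusted p below 0.05 whatever its fold, 4 were higher and 14 lower with Si NPs, and 9 higher and 14 lower with CNCs. No share of all tested unigenes by that rule is given, so these counts are a description only. The median log2 fold change over the members was -0.54 with Si NPs and -0.29 with CNCs, against 0.14 and 0.10 over all tested unigenes. Of the 34 tested CMLs, 3 had a fold above 0 with Si NPs (median -0.93) and 10 with CNCs (median -0.66).

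CIPK17-like (DN66617_c0_g1), a kinase, was higher with both particles. It had 1.59, 1.13 and 2.78 TPM in DS, 4.81, 9.76 and 21.9 TPM in DS_Si NPs and 21.03, 14.0 and 20.9 TPM in DS_CNCs. The lowest particle library was above the highest DS library, and the log2 fold changes were 2.64 ± 0.59 (edgeR adjusted p = 0.0256) and 3.18 ± 0.59 (edgeR adjusted p = 0.00833). With CNCs the call was kept in all 18 fits that left out 1 library (adjusted p at most 0.0499), and with Si NPs it was lost without DS 1, DS 2, DS_Si NPs 2 or DS_Si NPs 3 (up to 0.120). The Si NPs call was also lost with no filter on low counts and when only the libraries compared were fitted (up to 0.166).

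CBP60A-like (DN88872_c0_g1), from a family of calmodulin-binding transcription factors, was lower with both particles. It had 3.62, 1.71 and 1.60 TPM in DS, 0.71, 0.13 and 0.88 TPM in DS_Si NPs and 0.50, 0.29 and 0.85 TPM in DS_CNCs. The log2 fold changes were -2.30 ± 0.59 (edgeR adjusted p = 0.0402) and -2.38 ± 0.59 (edgeR adjusted p = 0.0268). The CNCs call was lost without DS 1, DS 2, DS_CNCs 1 or DS_CNCs 2 (adjusted p up to 0.0930), and the Si NPs call in 10 of 18 such fits (up to 0.119). Both were lost under limma-trend and when only the libraries compared were fitted, and the Si NPs call also with no filter on low counts (up to 0.0904 and 0.162). These levels are low, near 1 TPM in both particle groups.

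With CNCs, 3 kinases and 1 sensor fell below DS. CIPK31 (DN3283_c0_g1) had 4.93, 3.38 and 7.01 TPM in DS_CNCs, near its CK level (log2 fold change -3.05 ± 0.57, edgeR adjusted p = 0.00928). CML22 (DN2099_c0_g2), the sensor, had 1.33, 0.37 and 1.85 TPM in DS_CNCs (log2 fold change -3.40 ± 0.58, edgeR adjusted p = 0.00671). Both calls were kept in all 18 fits that left out 1 library and were lost when only the libraries compared were fitted (adjusted p = 0.0522 and 0.0563, the highest over the alternatives).

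A pair of unigenes described as CIPK14 had low or no counts in DS_CNCs. One (DN251_c1_g1) had 4.64, 22.1 and 5.98 TPM in DS and 0.65, 0.39 and 0.60 TPM in DS_CNCs (log2 fold change -4.53 ± 0.85, edgeR adjusted p = 0.0121). That call was lost without DS 2 or DS_CNCs 2 (adjusted p up to 0.0603). The other (DN65377_c0_g1) had 7.81, 24.4 and 0.73 TPM in DS, 39 counts in all, and no counts in DS_CNCs. It was at least 13.8-fold lower with the floor of 3 counts (edgeR adjusted p = 0.0448). Its call was lost in 13 of the 18 fits (up to 0.159), with no filter on low counts and with the replicate block (up to 0.0748). Low counts of DN65377_c0_g1 were not confined to DS_CNCs. DS_Si NPs had 1 count, 39.1-fold below DS (counting interval 6.61 to 1583). At normal water supply CNCs had 2 counts, against 36 in CK and 8 in Si NPs. This unigene was called neither in DS_Si NPs against DS nor in CNCs against CK. DN251_c1_g1 differed, with a mean of 8.84 TPM in DS_Si NPs against 0.55 TPM in DS_CNCs.

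With Si NPs, a sensor and a calmodulin-binding protein fell below DS beside CBP60A-like. CML18 (DN123568_c0_g1) had 5.60, 1.45 and 14.1 TPM in DS and 0.37, 0 and 0.72 TPM in DS_Si NPs. It went from 71 counts to 3, a 23.7-fold lower level (95% counting interval 7.79 to 118; edgeR adjusted p = 0.0382), while DS_CNCs libraries had 5.57, 1.68 and 8.31 TPM. The calmodulin-binding protein (DN1842_c1_g1) had 0.71, 0.21 and 1.34 TPM in DS_Si NPs (log2 fold change -2.37 ± 0.62, edgeR adjusted p = 0.0441). Their calls were lost in 12 and 13 of the 18 fits (adjusted p up to 0.114 and 0.105) and under 2 and 5 of the other alternatives, no filter on low counts and limma-trend on log2(TPM + 1) among them (up to 0.0695 and 0.175). Without DS 1, DS 2 or DS 3 the whole comparison called 1, 0 and 3 members. The share of all tested unigenes in those fits is not given, so these counts are a description only.

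**Figure D4:**
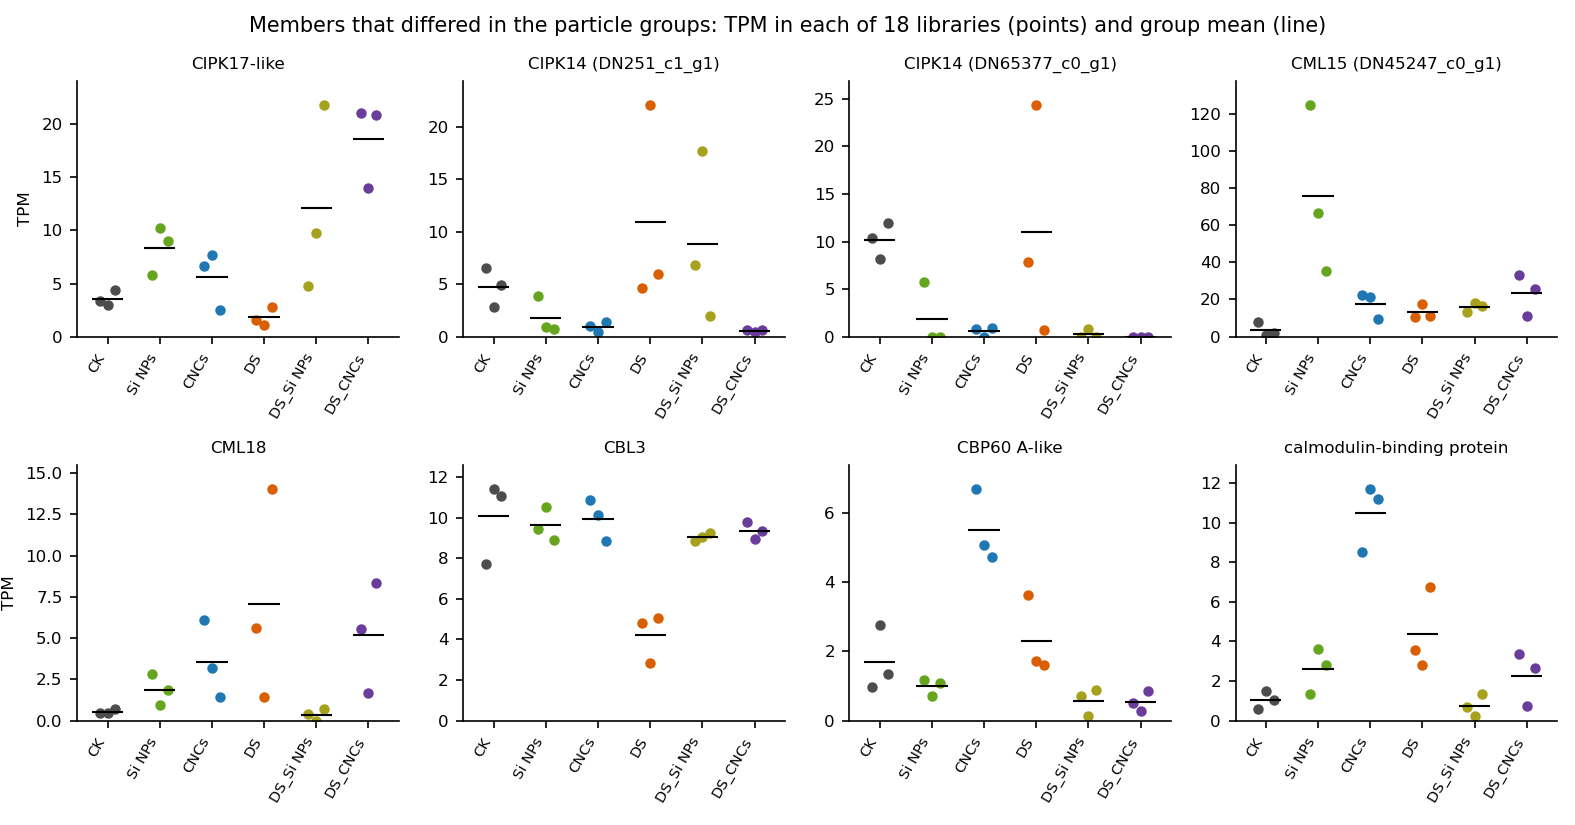
TPM (vertical axis, from 0, a panel per member) of 7 members called in a particle comparison and of CBL3, which was not, with 1 point per library in the 6 groups and a line at the mean of 3 libraries. CIPK17-like had 1.13 to 2.78 TPM in DS and 4.81 to 21.9 TPM in the drought groups with particles, and CML15 (DN45247_c0_g1) had 35.0 to 125 TPM in Si NPs.

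The 10 members raised in DS had folds below 0 against DS with either particle. The median log2 fold change was -1.97 with Si NPs (-3.36 to -1.28), with 0 of 10 called, and -1.92 with CNCs (-3.48 to -0.91), with 2 of 10 called. These comparisons share the DS libraries with DS against CK, so the direction is not independent of the rise, and the values are given side by side only. CDPK9-like (DN2195_c0_g1) had 4.16, 2.50 and 5.67 TPM in DS_Si NPs and 4.04, 6.10 and 4.76 TPM in DS_CNCs. Its log2 fold changes against DS were -1.83 (edgeR adjusted p = 0.00284) and -1.67 (edgeR adjusted p = 0.00151), under the fold threshold. Calmodulin-like protein 6 (DN4261_c0_g1) had 70.2, 21.4 and 77.3 TPM in DS_Si NPs and 58.3, 14.9 and 167 TPM in DS_CNCs. One DS_CNCs library was thus as high as DS, and neither fold passed the test. Against CK at normal water supply, all 10 had a fold above 0 with CNCs and 9 of 10 with Si NPs, and none was called. These folds share the CK libraries with DS against CK, so their direction is not independent of the rise either.

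**Figure D5:**
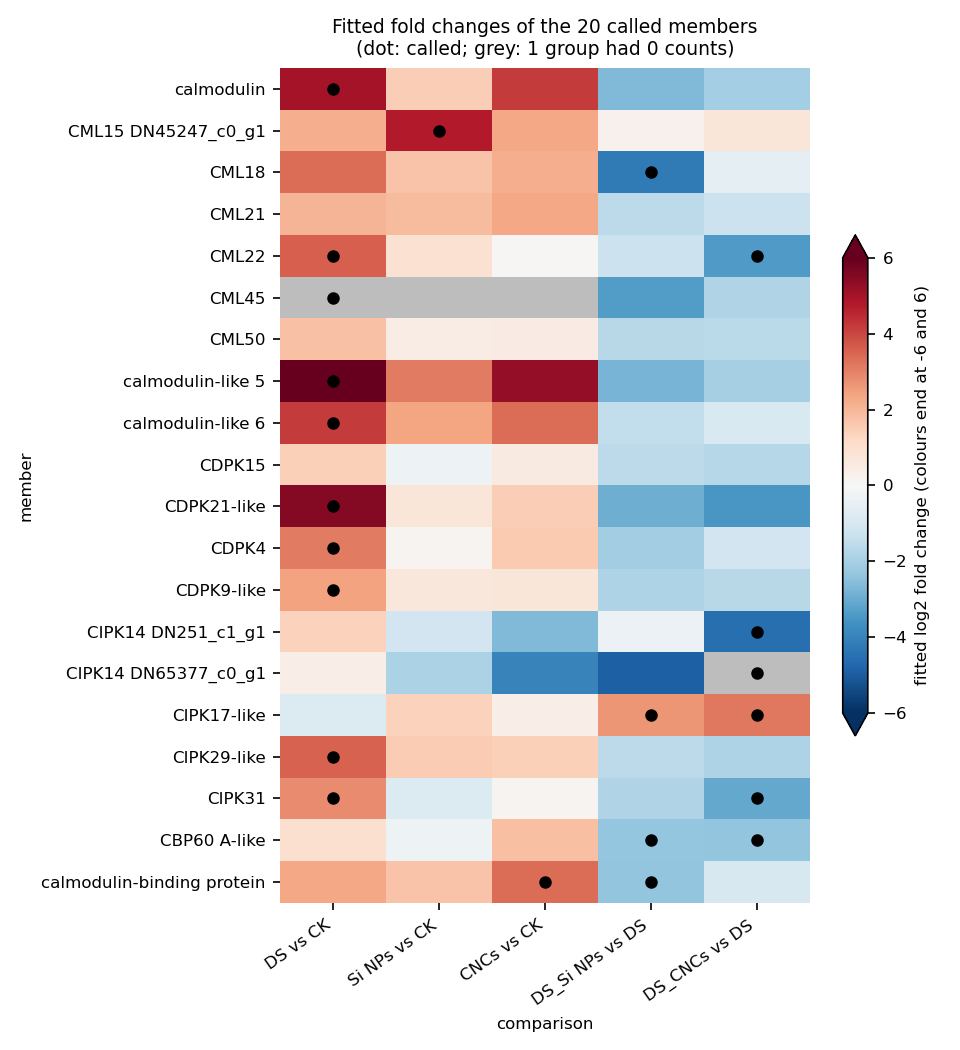
Fitted log2 fold change (colour) of the 20 called members (rows) in 5 comparisons (columns), where a dot marks a call and grey a comparison with 1 group at 0 counts. The 10 members raised in DS against CK, 5 sensors and 5 kinases, had negative folds in both drought comparisons of particles with DS. These comparisons share the DS libraries, so that direction is not independent of the rise.

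Whether a particle acted differently under drought was tested as an interaction, the log2 fold change of the particle under drought minus that at normal water supply. For CNCs, 10 of the 156 members were called, all with a negative difference, beside 1.96% of all tested unigenes, 1.41% with a negative difference, and 2.83% of those with a description. By description they were 5 sensors, one of them CML50, whose annotated domain is not an EF-hand, 3 kinases and 2 calmodulin-binding proteins. Of these 10 members, 5 were also called in DS against CK, which uses the same CK and DS libraries. CDPK9-like (DN2195_c0_g1) had 0.71 on the log2 scale with CNCs at normal water supply and -1.67 under drought, a difference of -2.38 ± 0.31 (edgeR adjusted p = 0.00201). CBP60A-like (DN88872_c0_g1) went from 1.82 to -2.38 (difference -4.20 ± 0.82, edgeR adjusted p = 0.0187). The calmodulin-binding protein (DN1842_c1_g1) went from 3.35 to -0.96 (difference -4.32 ± 0.87, edgeR adjusted p = 0.0214). CDPK15 (DN251_c1_g3) went from 0.55 to -1.70 (difference -2.24 ± 0.48, edgeR adjusted p = 0.0256). With 1 library left out, the CBP60A-like call was lost without CK 1, CK 3, DS_CNCs 1 or DS_CNCs 2 (adjusted p up to 0.0702), that of DN1842_c1_g1 without CK 1, CK 3 or CNCs 2 (up to 0.0710) and that of CDPK15 in 7 of 18 fits, among them those without CK 1 or CK 3 (up to 0.0813).

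The members described as sensors supplied the other calls, with CIPK31. CML50 (DN2583_c0_g1) averaged 10.7 TPM in CK, 17.1 in CNCs, 28.5 in DS and 12.3 in DS_CNCs. CML21 (DN16011_c0_g1) averaged 0.54 TPM in CK, 3.11 in CNCs, 2.07 in DS and 0.87 in DS_CNCs. Both, together with calmodulin-like protein 6, the calmodulin fragment, CML22 and CIPK31, lost the call in 11 to 14 of the 18 fits that left out 1 library (adjusted p up to 0.130). All but calmodulin-like protein 6 also lost it with no filter on low counts, and CML50, CML22 and CIPK31 under both limma-trend settings. The number of called members was 1, 4 and 1 without CK 1, CK 2 or CK 3. No share of all tested unigenes is given for these fits, so this drop cannot be told from one in all unigenes. Both interactions use the same CK and DS libraries, so a member called in both is not an independent observation. For Si NPs the interaction called 1 member, beside 0.263% of all tested unigenes. It was CDPK9-like again, with 0.67 at normal water supply and -1.83 under drought (difference -2.50, edgeR adjusted p = 0.00726), and for both particles it was kept in all 18 fits that left out 1 library (adjusted p up to 0.0411 with Si NPs). Limma-trend on log2(TPM + 1) ended both calls and limma-trend on log2(TPM + 0.5) that of Si NPs, with differences down to -1.90 for Si NPs and -1.94 for CNCs and an adjusted p of at most 0.0892 and 0.0285 over the alternatives.

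By the main edgeR fit no member separated the particles from each other. In CNCs against Si NPs edgeR called 0 of 156 members, beside 0.0411% of all tested unigenes. There 24 members had an unadjusted p below 0.05 in edgeR and DESeq2 called 2. In DS_CNCs against DS_Si NPs edgeR called 0 of 156, beside 0.0% of all tested unigenes. Here 15 members had an unadjusted p below 0.05 in edgeR and DESeq2 called 2. No share of all unigenes is given for the unadjusted p or for DESeq2. The median log2 fold change over the members was 0.26 and 0.20. This does not show that the particles acted alike.

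The calmodulin-dependent kinases had no called member. DN5402_c0_g1, at a mean of 13.6 TPM, had the lowest adjusted p of the class in the test over the 6 groups (edgeR adjusted p = 0.0379), and the most abundant, DN19349_c0_g1, had 25.96 TPM and no adjusted p below 0.05. Of the calmodulin-binding proteins, CBP60B-like (DN4460_c0_g1) averaged 6.83 ± 3.45 TPM in CK and 89.7 ± 27.7 TPM in CNCs. Its log2 fold change of 3.75 ± 1.12 did not pass the test (edgeR adjusted p = 0.137).

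The rest of the calcium pathway was read from lists taken by description. Of the channels and other proteins of calcium entry, here into the cytosol or into mitochondria, 49 of 69 were tested. In DS against CK 3 of them rose (6.12%, beside 2.01% of all tested unigenes). ERD4 (DN17239_c0_g1), of the family of osmosensitive calcium channels, had 22.5 ± 2.91 TPM in CK, 83.2 ± 37.2 in DS and 16.5 in DS_CNCs on average. It was higher in DS against CK (log2 fold change 2.08, edgeR adjusted p = 0.0131) and lower in DS_CNCs against DS (-2.43, edgeR adjusted p = 0.00440). Calcium uniporter protein 2 (DN211_c0_g1), the mitochondrial channel, averaged 1.34 TPM in CK and 8.04 in DS (log2 fold change 2.83, edgeR adjusted p = 0.00745) and fell again with CNCs (-2.57, edgeR adjusted p = 0.00708). Against DS, the entry list had 2 higher and 4 lower with CNCs (12.2%, beside 5.8%) and 1 higher with Si NPs (2.04%, beside 3.39%).

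Of the pumps and exchangers that remove calcium, 40 of 46 were tested, and none passed in DS against CK. Against DS, 1 was lower with Si NPs and 2 with CNCs, which at 2.50% and 5.00% were under the shares of all tested unigenes, 3.39% and 5.8%. With CNCs these were a plasma membrane calcium ATPase 8 (DN14425_c0_g1; log2 fold change -2.52, edgeR adjusted p = 0.000745) and an endoplasmic reticulum calcium ATPase 4 (DN7354_c1_g1; -4.12, edgeR adjusted p = 0.0241). The last list took, by description, families with known targets of such kinases. Whether the listed unigenes are targets themselves was not tested. Of this list, 21 of 29 were tested and 1 rose in DS (4.76%, beside 2.01%). This was RBOHB-like (DN776_c0_g1), an NADPH oxidase of the family that CDPKs phosphorylate, with 10.2 TPM in CK and 48.2 ± 23.1 TPM in DS (log2 fold change 2.44, edgeR adjusted p = 0.0298). A high-affinity potassium transporter 9 (DN33150_c0_g1) had no counts in DS and was at least 18.6-fold higher in both drought groups with particles. With 1 library left out, the DS calls were lost for ERD4 without any one CK library or DS 2 (adjusted p up to 0.0776), for the uniporter without CK 3 (0.0587) and for RBOHB-like without any one CK library, DS 1 or DS 2 (up to 0.133). With CNCs the calls of calcium ATPase 8 and the uniporter were kept in all 18 fits, but both missed the fold threshold under limma-trend on log2(TPM + 1), and the uniporter also on log2(TPM + 0.5) (folds down to -1.98 and -1.75 on the log2 scale). ERD4 was lost without DS 2 (fold -1.99 on the log2 scale), and ATPase 4 was lost in 4 fits (up to 0.0830). The transporter was lost in 6 fits with CNCs and 15 with Si NPs (up to 0.110 and 0.138).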

How the data were processed

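Leaf RNA of 18 libraries was sequenced from poly-A selected, strand-specific libraries. The authors assembled the reads without a genome (Trinity), described unigenes by DIAMOND search and deposited Salmon estimated counts and TPM per unigene. TPM corrects for length and total, so levels were compared between unigenes in TPM only. Estimated counts, 452055 of them not whole, were rounded. edgeR 4.0.16 (R 4.3.3) filtered by filterByExpr, normalised by TMM and fitted 1 mean per group over 18 libraries (quasi-likelihood test, Benjamini-Hochberg over 55979 unigenes). SE is the Wald error of that fit. Alternatives were DESeq2 1.42.0, limma 3.58.1 on log2(TPM + 0.5) and log2(TPM + 1), RLE normalization, no filter, other fold thresholds, only the libraries compared, a replicate block and each library left out. The scripts were tested on simulated data. Members and lists were chosen with earlier results of these data known. Named were all called members, the 2 most abundant of each class, the member with the lowest adjusted p over the 6 groups in a class without a call, one CML15 known beforehand and up to 3 called unigenes per further list. CBL3 came under that rule, and the proteins outside it were named after their values were seen. Sequences of members were not used here.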

Additional observations from a re-analysis of the deposited data

Results flagged for a closer look

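These results were picked out because the effect of a particle differed between drought and normal water supply by the test of the difference itself (edgeR interaction, adjusted p below 0.05 and a difference above 2 in size on the log2 scale). Dixon's test for a single outlying value was not run, as groups had 3 libraries. CK 3 lay close to a mixture of the other CK libraries, and without it 1 member was called for each particle. That count stands without the share of all tested unigenes.

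For CNCs the difference among members was -2.38 for CDPK9-like (DN2195_c0_g1), -4.20 for CBP60A-like (DN88872_c0_g1), -4.32 for the calmodulin-binding protein DN1842_c1_g1 and -2.24 for CDPK15 (DN251_c1_g3). Among members described as sensors it was -2.12 for CML50 (DN2583_c0_g1), whose annotated domain is not an EF-hand, -3.63 for CML21 (DN16011_c0_g1), -4.27 for calmodulin-like protein 6 (DN4261_c0_g1), -6.22 for the calmodulin fragment (DN11525_c0_g2) and -3.48 for CML22 (DN2099_c0_g2), and it was -3.22 for the kinase CIPK31 (DN3283_c0_g1). CDPK9-like was the only one of these 10 whose call was kept in all 18 fits that left out 1 library, although limma-trend on log2(TPM + 1) ended it. For the calmodulin fragment it was kept in 4 of them, with an adjusted p up to 0.130.

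In the rest of the pathway the CNCs difference was -2.37 for calcium ATPase 8 (DN14425_c0_g1), -3.53 for glutamate receptor 2.8-like (DN15733_c0_g1), -3.65 for calcium uniporter protein 2 (DN211_c0_g1) and -2.50 for annexin D3-like (DN10611_c0_g1). Glutamate receptor 2.8-like was also the single unigene of these lists called between the particles at normal water supply (CNCs against Si NPs log2 fold change 2.66, edgeR adjusted p = 0.0322), a call lost in 7 of 18 fits that left out 1 library (adjusted p up to 0.219), with no filter on low counts and under both limma-trend settings. For Si NPs the difference was -2.50 for CDPK9-like (DN2195_c0_g1) and -2.13 for another calcium ATPase 8 (DN10990_c1_g1), the latter kept in 9 of the 18 fits.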

How the results depend on the processing

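No result changed direction under any alternative run. Counts in this section stand without the share of all tested unigenes, so they do not tell a change in the members from a change in all unigenes. Counts of called members moved by more than 1.5 times as follows. With DESeq2 they were 6 for Si NPs against CK, 22 for CNCs against CK, 27 for DS against CK, 12 for DS_Si NPs against DS, 14 for DS_CNCs against DS, 2 for CNCs against Si NPs, 2 for DS_CNCs against DS_Si NPs, 9 and 21 for the Si NPs and CNCs interactions and 88 over the 6 groups. Fitting only the libraries compared gave 3 for Si NPs against CK, 18 for CNCs against CK, 19 for DS against CK, 0 for DS_Si NPs against DS, 2 for DS_CNCs against DS and 3 for CNCs against Si NPs. Limma-trend on log2(TPM + 0.5) gave 2, 4, 7 and 12 for Si NPs and CNCs against CK and DS_Si NPs and DS_CNCs against DS and 0 for the Si NPs interaction, and on log2(TPM + 1) it gave 2 and 4 against CK, 13 for DS_CNCs against DS and 0 for that interaction. No filter on low counts gave 0 for DS_Si NPs against DS and 5 for the CNCs interaction. A log2 fold threshold of 1 gave 2 for CNCs against CK, 18 for DS against CK, 13 for DS_Si NPs against DS and 18 for DS_CNCs against DS, and no fold threshold gave 2, 20, 18 and 23.

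Leaving out 1 library at a time gave 0 to 2 for Si NPs against CK, 0 to 4 for CNCs against CK, 1 to 14 for DS against CK, 0 to 7 for DS_Si NPs against DS, 3 to 14 for DS_CNCs against DS, 0 to 0 for both comparisons between particles, 1 to 3 and 1 to 20 for the Si NPs and CNCs interactions and 16 to 42 over the 6 groups. Of the values of single unigenes under such fits, 782 stayed on their side of the threshold, 3 moved past it and 295 no longer passed. Under the other alternatives these were 319, 5 and 79. The replicate numbers did not pair the libraries (correlation of deviations -0.08 to 0.16 over 45 pairs, 2 of them above 0.1). With the replicate number as a block, DS against CK called 12 members, DS_Si NPs against DS 3, DS_CNCs against DS 5, the CNCs interaction 9 and the test over the 6 groups 25. RLE normalization ended 1 call. The depth of 16175624 to 26102122 counts limits the low members, of which 56 could not be tested.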
